A study of Rattus norvegicus with 2 samples.

Results

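The 10 genes of cellular iron handling followed here in rat C6 glioma cells were the ferroxidase gene Cp, its paralog Heph, the exporter gene Slc40a1, the uptake genes Tf, Tfrc and Slc11a2, the storage gene Fth1, the heme-degrading enzyme gene Hmox1, and the iron sensor genes Ireb2 and Aco1. The members were chosen by function around Cp and Hmox1, whose differences between these same arrays were already known, so the values below describe the genes and test nothing. They were matched as probe sets whose only gene symbol in the platform annotation was that of the member. Of the 10 genes, 9 had such a probe set, among 18166 genes in all, and 7 of the 9 were detected, against 11015 detected genes overall. A gene counted as detected when it exceeded the floor on 1 or both arrays, the floor being the 95th percentile of 1333 olfactory and vomeronasal receptor genes that were taken as silent (4.82 in C6 and 4.93 in SMiG, log2). Tf, encoding the plasma iron carrier transferrin, was represented only by probe sets shared with a second gene and has no value of its own.

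Genes outside the naming rule, chosen with their values in view, are marked as picked afterwards. C6 is an established rat glioma line, grown here in DMEM with 10% serum. The study set 1 array of undifferentiated C6 cells against 1 array of C6 cells treated with small molecules, labelled SMiG, and asked whether the treated cells resemble glia. For SMiG the sample labels list forskolin (an adenylyl cyclase activator), rapamycin (an mTORC1 inhibitor) and I-BET151 (a BET bromodomain inhibitor), whereas a protocol text attached to both samples lists CHIR99021 (a GSK3 inhibitor) at 20 µM with forskolin at 100 µM over 35 days. Because each group is a single culture on a single array, treatment, culture history and array cannot be told apart, and no p-value or replicate error can be given.

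Iron enters most cells bound to transferrin through the transferrin receptor, is reduced in the endosome, and crosses its membrane through the metal transporter DMT1. Iron that is not used is stored in ferritin, a shell of heavy (Fth1) and light (Ftl1) chains, or leaves through ferroportin (Slc40a1), with ceruloplasmin or hephaestin oxidising it for loading onto transferrin. The regulatory proteins IRP1 (Aco1) and IRP2 (Ireb2) bind hairpins in the mRNAs of these genes when iron is scarce, holding back ferritin translation and stabilising the transferrin receptor mRNA. Heme oxygenase 1 (Hmox1) opens heme and releases its iron. In brain, astrocytes carry a membrane-anchored form of ceruloplasmin, and transferrin is made by oligodendrocytes and the choroid plexus.

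Among the 7 detected genes, 1 passed 2-fold upward in SMiG (Cp), 1 passed it downward (Hmox1), and 5 lay within 2-fold. Over all detected genes, 3.17% passed 2-fold upward in SMiG and 6.47% passed it downward. At 1.5-fold, 3 of the 7 were higher (Cp, Slc11a2, Fth1) and 2 lower (Hmox1, Tfrc), where 10.4% of all detected genes were higher and 15.0% lower. Since the members were assembled around known differences, nothing is read from these shares. The median log2 difference, SMiG minus C6 here and throughout, was 0.18 over the 7 genes and −0.0020 over all detected genes.

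**Figure D1:**
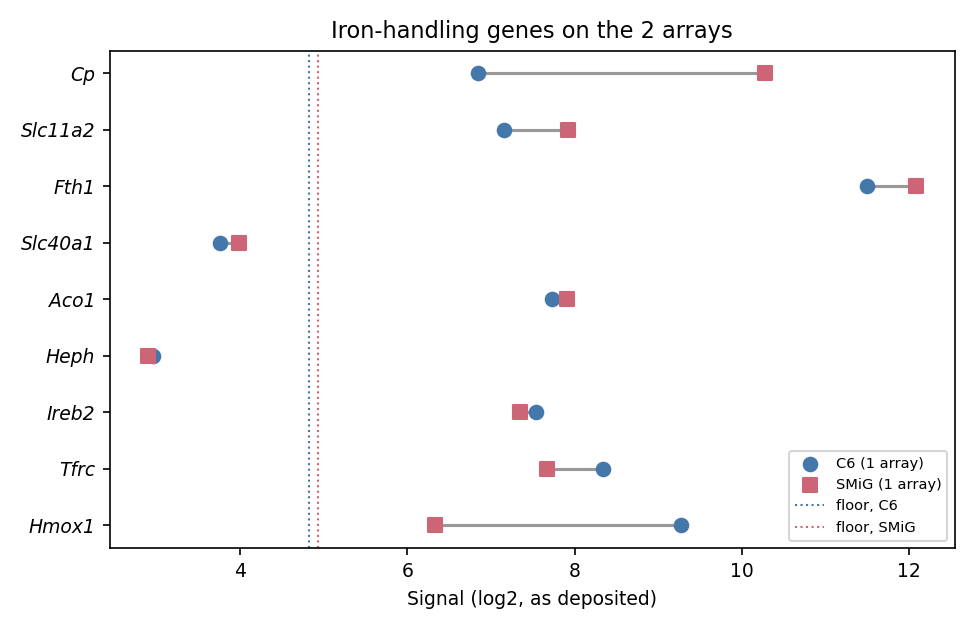
Log2 signal (horizontal axis, as deposited) of the 9 measured genes on the C6 array (blue circles) and the SMiG array (red squares), ordered by difference, with the floor of each array as a dotted line. Cp has the longest gap upward, from 6.85 to 10.27, Hmox1 the longest downward, from 9.27 to 6.33, and Slc40a1 and Heph lie below both floors; levels of different genes are not comparable.

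The ferroxidase gene Cp gave a log2 signal of 6.85 in C6 and 10.27 in SMiG. It was above the floor on both arrays, by 2.03 in C6 and 5.34 in SMiG, so its 10.8-fold difference was measured on both sides. Only 2 of the 11015 detected genes had a higher difference. Heph, encoding the membrane ferroxidase hephaestin, lay below the floor on both arrays (2.96 in C6 and 2.90 in SMiG) and has no fold. Slc40a1, encoding ferroportin, the iron exporter that these ferroxidases assist, also lay below both floors, at 3.76 in C6 and 3.98 in SMiG. The higher signal of Cp was therefore not accompanied by a detectable signal of its paralog or of the exporter; a signal below the floor does not show that a transcript is absent.

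The uptake genes differed less and in opposite directions. Tfrc, encoding transferrin receptor 1, was at 8.34 in C6 and 7.67 in SMiG, 1.60-fold lower. Of the detected genes 12.1% had a lower difference than Tfrc. Slc11a2, encoding the divalent metal transporter DMT1 that moves iron out of the endosome, was at 7.15 in C6 and 7.92 in SMiG, 1.70-fold higher. Of the detected genes 6.06% had a higher difference than Slc11a2. Both genes were well above the floor on both arrays, by 2.33 or more.

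Fth1, encoding the ferritin heavy chain with its ferroxidase centre, had 2 probe sets. The first read 11.20 in C6 and 11.95 in SMiG, and the second 11.80 and 12.22. The differences were 0.75 and 0.43, a gap of 0.32, where the median gap over 179 detected genes with 2 probe sets was 0.23. Their mean was 1.51-fold higher in SMiG, so the gene sits at the 1.5-fold line and one probe set alone falls inside it. Ferritin genes have near-identical copies that can share signal, so the value of Fth1 is uncertain; the copy Fth1l1, picked afterwards, was at 5.71 and 5.78. The light chain gene Ftl1 differed the other way, at 12.31 in C6 and 11.85 in SMiG.

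Hmox1 gave 9.27 in C6 and 6.33 in SMiG, 7.65-fold lower. It stayed 1.40 above the floor in SMiG, so this fold was also measured on both sides. Of the detected genes 39 had a lower difference, which is 0.354% of them. The constitutive isoform gene Hmox2, picked afterwards, differed in the opposite direction, at 5.95 in C6 and 6.57 in SMiG.

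The sensor genes had the smallest differences of the detected members. Ireb2, encoding IRP2, was at 7.54 in C6 and 7.34 in SMiG. Aco1, encoding IRP1, which doubles as the cytosolic aconitase when it holds an iron-sulfur cluster, was at 7.73 and 7.91. The folds were 1.15 lower and 1.13 higher, and 66.6% and 70.5% of detected genes differed at least as much in either direction. The silent receptor genes, whose differences have an SD of 0.32 that holds no variation between cultures, spread more widely than either sensor differed. They lie near background, whereas both sensors were above the floor by 2.41 or more. Their SD therefore gives no error for genes at the level of the sensors. The arrays read mRNA, and the activity of both sensors is set on the protein, which was not measured.

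**Figure D2:**
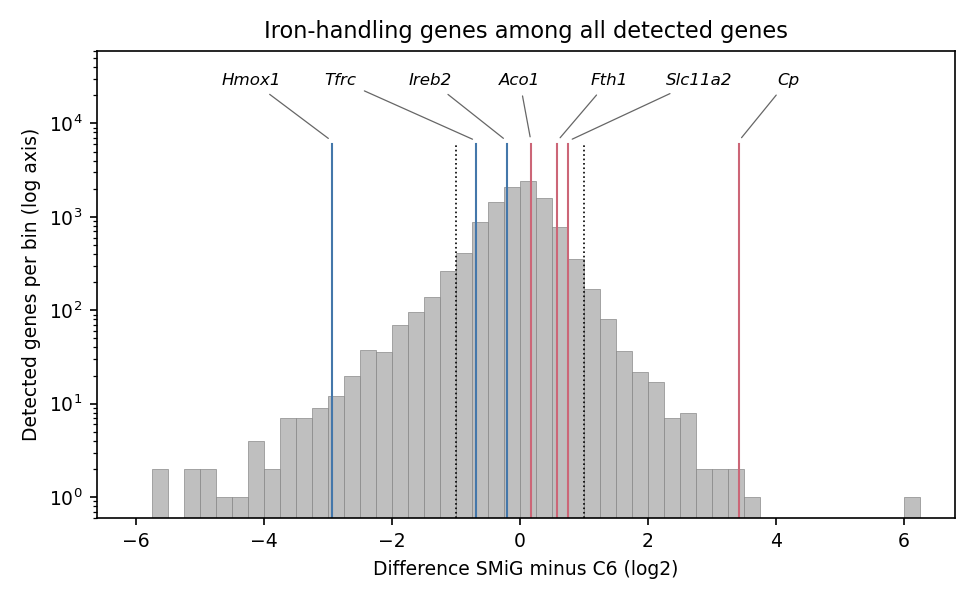
Histogram of the log2 difference (SMiG minus C6, horizontal axis) of the 11015 detected genes, with the number of genes per bin on a log axis and the 7 detected iron-handling genes as vertical lines (blue below 0, red above). Dotted lines mark 2-fold; Cp at 3.43 and Hmox1 at −2.94 stand in opposite tails, and the other 5 lie between the dotted lines.

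Detected genes were ranked by how near their difference lay to that of Cp or Hmox1. Genes with provisional locus names, olfactory and vomeronasal receptor genes and small RNA genes were not ranked, so an unranked gene may lie nearer. Among the genes ranked, the 3 nearest to Cp were Lifr, Enpp2 and Slc6a8. The 3 nearest to Hmox1 were Vegfa, Arhgef2 and Slc6a9. The likeness is the gap between log2 differences over 2 arrays, so it ranks sizes and shows no shared pattern. Around Cp the gaps were 0.08 for the cytokine receptor gene Lifr, 0.09 for Enpp2 (autotaxin) and 0.18 for Slc6a8 (the creatine transporter). Lifr and Enpp2 were below the floor in C6, with folds of at least 8.63 and at least 7.31, whereas Slc6a8 was 9.50-fold higher on measured values. Around Hmox1 the gaps were 0.013 for the angiogenic factor gene Vegfa, 0.015 for Arhgef2, encoding an activator of RhoA, and 0.024 for the glycine transporter gene Slc6a9. These 3 were between 7.58-fold and 7.78-fold lower and above the floor on both arrays.

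RefSeq (GRCr8) start sites were found for 8 of the 10 members; Hmox1 and Fth1 had no entry. The 250 bases before each start were searched on both strands for short patterns. These were ACGTG (the core of hypoxia response elements), TGACG (the core of cAMP response elements) and TTCNNNGAA (a STAT site). Also searched were TGACNNNGC (the core of antioxidant response elements) and TTGCNNNAA, a pattern not assigned here to any factor. Over all 33469 windows of that length, 16.6% held ACGTG, 18.2% TGACG, 7.67% TTCNNNGAA, 10.1% TGACNNNGC and 8.17% TTGCNNNAA. The windows of Cp, Tfrc and Ireb2 held a match and are printed 5′ to 3′ on the gene's strand with the matches in capitals; the windows of the other 5 members held none. Cp lies on the plus strand (chr2:104368420-104368669) and holds 1 TTGCNNNAA match, 96 to 88 bases before the start. Tfrc lies on the minus strand (chr11:81690319-81690568) and holds ACGTG at 31 to 27 bases and TGACG at 16 to 12 bases before the start. Ireb2 lies on the plus strand (chr8:64160838-64161087) and holds TGACG on the opposite strand, 218 to 214 bases before the start.
Cp: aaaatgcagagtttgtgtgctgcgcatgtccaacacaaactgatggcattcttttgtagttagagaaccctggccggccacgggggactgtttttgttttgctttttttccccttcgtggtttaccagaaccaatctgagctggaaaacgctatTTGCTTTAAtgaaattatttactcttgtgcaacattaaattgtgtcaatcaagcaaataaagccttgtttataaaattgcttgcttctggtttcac
Tfrc: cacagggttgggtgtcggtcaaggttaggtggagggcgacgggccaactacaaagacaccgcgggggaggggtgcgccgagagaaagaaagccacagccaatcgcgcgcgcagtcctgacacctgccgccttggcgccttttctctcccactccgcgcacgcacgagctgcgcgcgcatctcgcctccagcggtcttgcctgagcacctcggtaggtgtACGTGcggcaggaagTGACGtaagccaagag
Ireb2: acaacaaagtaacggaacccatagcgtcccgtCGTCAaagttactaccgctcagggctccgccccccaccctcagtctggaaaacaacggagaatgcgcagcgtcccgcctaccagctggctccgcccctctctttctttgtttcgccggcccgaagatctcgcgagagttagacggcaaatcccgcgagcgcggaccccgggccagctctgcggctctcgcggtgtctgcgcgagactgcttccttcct
The matches are a description of the letters, and each motif occurs in many windows. The Cp window was 39.6% G and C, against 64.8% for Tfrc and 62.4% for Ireb2. Binding at these sites was not measured.

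The other genes of the pathway were taken from 9 lists with 127 distinct genes, of which 111 had a probe set and 84 were detected. Of these, 3 (3.57%) passed 2-fold upward and 8 (9.52%) downward, beside 3.17% and 6.47% of all detected genes. The median difference was −0.03.

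Of 9 detected genes in the list of iron entry and endosomal reduction, 3 were at least 2-fold lower in SMiG, 6 lay within 2-fold and none was higher by that much, with a median of −0.93 beside −0.0020 for all detected genes. Steap3, encoding the main ferrireductase of the transferrin endosome in red cell precursors, was at 7.64 in C6 and 6.13 in SMiG. Its relative Steap1 was at 6.89 and 5.43. Slc39a8, encoding the metal importer ZIP8, was at 7.15 and 5.77. The folds of these 3 genes were 2.86, 2.73 and 2.59. Of genes picked afterwards, the ferritin receptor gene Scara5 and the scavenger receptor gene Lrp1 stood just inside 2-fold at −0.96 and −0.93. The importer gene Slc39a14 (ZIP14) was at −0.04, and the lysosomal channel gene Mcoln1 had the highest value of the list at 0.50.

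In the storage list none of 5 detected genes passed 2-fold, and the median was 0.27. Ncoa4, encoding the receptor that carries ferritin to the lysosome, was at 9.52 in C6 and 10.11 in SMiG, and Ftl1 had the lowest value of the list at −0.46. In the list of iron sensing and the hepcidin axis none of 5 passed 2-fold, with a median of 0.28. Its largest differences were 0.46 for Neo1, encoding the coreceptor neogenin, and 0.30 for Hamp, encoding hepcidin, which at 4.84 and 5.14 barely cleared the floor on either array. Fbxl5, encoding the iron-sensing ubiquitin ligase subunit that marks IRP2 for degradation and picked afterwards, was at 8.61 and 8.59.

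Heme synthesis gave no member past 2-fold among 11 detected, with a median of 0.04. Ppox, encoding protoporphyrinogen oxidase, was 1.65-fold lower and Tmem14c, encoding a mitochondrial porphyrin transporter, 1.64-fold higher. Fech, encoding the ferrochelatase that inserts iron into heme and picked afterwards, was at 7.37 and 7.42. In heme breakdown and scavenging, none of 4 detected genes passed 2-fold. Blvrb, encoding biliverdin reductase B, came nearest at 8.33 in C6 and 7.34 in SMiG, 1.98-fold lower. Hp, encoding haptoglobin, had a bound of at least 1.38-fold lower, being under the floor in SMiG.

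The list of mitochondrial iron and iron-sulfur assembly also holds genes of cytosolic assembly (Ciao1, Nubp1, Nubp2). It split evenly, with 7 of 14 detected genes on each side of 0 and a median of 0.03. Of all detected genes 49.1% were above 0 and 50.1% below. Of the 14, 2 were at least 2-fold lower and none higher, beside 6.47% and 3.17% of all detected genes. Nfu1, encoding a late carrier of iron-sulfur clusters, was at 9.41 in C6 and 8.11 in SMiG, 2.47-fold lower. Isca2, needed for clusters of 4 irons, was 2.05-fold lower at 6.94 against 7.97, just past the threshold; with quantile normalization its difference was −0.99 and it no longer passed. On the other side Iscu, encoding the scaffold on which clusters are built and picked afterwards, was at 8.65 and 9.37.

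Ceruloplasmin needs copper, which reaches it in the secretory pathway through chaperones and copper pumps. The copper list also holds genes outside that route, among them Sod1, Ccs, Cox17, Sco1 and the metallothionein genes. None of its 12 detected genes passed 2-fold, and the median of the whole list was 0.36. The highest were Atox1, encoding the chaperone that hands copper to the pumps, at 7.63 in C6 and 8.58 in SMiG, and Atp7a, encoding such a pump, at 6.91 and 7.79. They were 1.92-fold and 1.84-fold higher. The copper importer gene Slc31a1, picked afterwards, was at −0.12.

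Hmox1 is a classic target of the transcription factor NRF2 and is held down by BACH1. In the list of its regulators and other NRF2 targets, all 16 genes with a probe set were detected. Of these, 3 passed 2-fold downward and 1 upward, beside 6.47% and 3.17% of all detected genes. The median was −0.59, beside −0.0020 for all detected genes. The part of NRF2 in these differences was not tested. Nqo1, encoding a quinone reductase, was at 10.26 in C6 and 7.87 in SMiG, 5.23-fold lower. Slc7a11, the cystine transporter gene, was 13.6-fold lower and Osgin1 2.23-fold lower, the latter ending close to the floor at 4.95. Mafk, encoding a small MAF protein that pairs with NRF2 or BACH1, was 2.21-fold higher at 7.76 against 6.61. Of genes picked afterwards, Nfe2l2, which encodes NRF2, was at −0.52 and Bach1 at 0.07, and the glutathione synthesis genes Gclm and Gclc were at −0.26 and −0.21. Slc7a11 was the gene of this list with a larger difference than Hmox1.

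Cp is also an acute-phase gene in liver. In the list of acute-phase and STAT3 targets, 9 of the 17 genes with a probe set were detected. Of these, 2 were at least 2-fold higher and none lower, beside 3.17% and 6.47% of all detected genes. The median was 0.14. The 2 were Lifr and Stat3, the latter at 8.55 in C6 and 9.65 in SMiG, 2.15-fold higher. The list holds receptors and the factor itself beside secreted proteins. Of the secreted acute-phase proteins picked afterwards, Lcn2 was below the floor in C6 and at least 1.53-fold higher, and Serpina3n was at −0.31. Hp, named above and also in this list, was at least 1.38-fold lower. Of the 9 detected genes of the list, 5 differed upward and 4 downward.

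**Figure D3:**
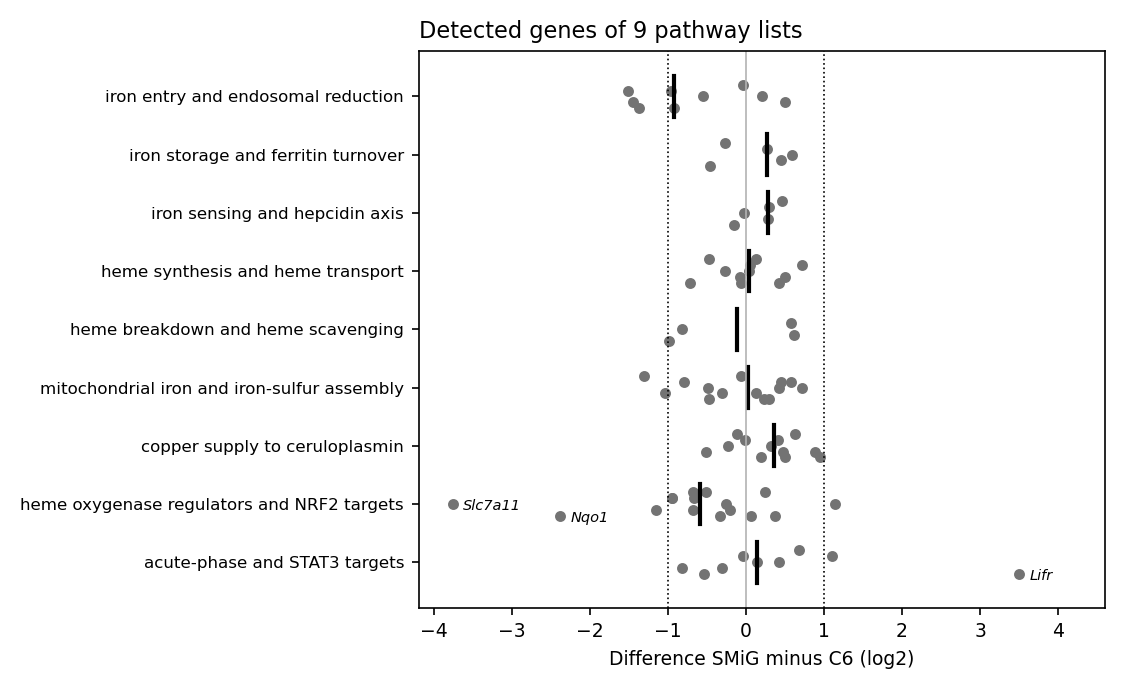
Log2 difference (SMiG minus C6, horizontal axis) of each detected gene in the 9 lists (grey points, offset vertically for legibility), with the median of each list as a black bar and 2-fold as dotted lines. The medians run from −0.93 for iron entry to 0.36 for copper supply, and Slc7a11, Nqo1 and Lifr, each past 4-fold, are labelled.

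The cells were checked against their label. All 6 glial and glioma markers (S100b, Gfap, Vim, Nes, Cspg4, Olig2) were above the floor on both arrays. Of cell types known to make Cp or Tf, none of 5 measured hepatocyte markers was above the floor on either array, and 2 of 6 choroid plexus markers were on each, Ttr and Folr1, with 5.19 the highest value of the list. Myelinating oligodendrocyte markers were above the floor for 1 of 5 genes in C6 and 4 of 5 in SMiG, with 5.73 the highest value. The 3 that crossed it, Mbp, Mog and Mag, have bounds of at least 1.13-fold, 1.10-fold and 1.27-fold, and the summed log2 level of the 5 markers was 23.8 in C6 and 25.4 in SMiG. Microglia and macrophage markers were above it for 1 of 6 on each array, Cd68 in C6 (5.37) and P2ry12 in SMiG (5.32). Each of these was below the floor on the other array. Erythroid markers were above the floor for none of 3. Endothelial markers were above it for 3 of 4 genes in C6 and 2 of 4 in SMiG, with a summed log2 level of 21.5 and 18.8. Flt1 was at least 2.88-fold lower (6.46 in C6 and 4.47 in SMiG), Tek was 1.81-fold lower, and Cdh5 lay below both floors. The part of these in the differences of Cp and Hmox1 was not tested. In a bulk sample, fewer cells of a type and less RNA per cell cannot be told apart.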

How the data were processed

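Total RNA of 1 C6 and 1 SMiG culture was converted to sense cDNA, biotin-labelled with terminal transferase, and read on whole-transcript arrays, per the labels' protocols. The deposited table holds 1 value for each of 36685 probe sets per array, taken as log2 values on the authors' common scale: their range, 1.26 to 13.09, exceeds 11.09, which a 16-bit maximum gives as a natural log. The log base and how the arrays were background-corrected and normalized were not given in the sources used here, and could change any fold; the column medians were 4.84 and 4.86.

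Genes were named from the 18511 probe sets with 1 symbol (575 had several, 17599 none); 18394 matched RefSeq GRCr8 by gene number, with 0 symbols changed. Probe sets of a gene were averaged. A difference counted at 2-fold on measured values; where a gene did not exceed the floor of its dimmer array, the fold is brighter value over floor, as "at least". Of the silent receptor genes, which were protein-coding in RefSeq, 0.825% passed 2-fold.

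Members and lists were chosen with earlier results of these data known. Named were all members and up to 5 genes past 2-fold per list, or otherwise its 2 largest differences. Also named were the 3 genes nearest to the highest and lowest member, among the genes that were ranked. Provisional locus names, olfactory and vomeronasal receptor genes and small RNA genes were kept out of that ranking. Others are marked as picked afterwards. With 1 array per group no test was run, and the number of arrays limits the precision. Counting was tested on simulated data. Tried as alternatives were the 99th percentile as floor, no floor, values raised to the floor, median centring, removal of a lowess trend (span 0.3), quantile normalization, the brightest probe set, each probe set alone, and thresholds of 1.5-fold and 3-fold. Computation used numpy 2.4.6, pandas 2.3.3, statsmodels 0.14.6 and matplotlib 3.10.9 under Python 3.11.15.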

Additional observations from a re-analysis of the deposited data

Results flagged for a closer look

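Signal above the floor appeared in 2 probe sets that the comparisons did not use, because their annotation names both Tf and its chromosomal neighbour Srprb, which encodes a subunit of the signal recognition particle receptor. The first read 8.47 in C6 and 7.85 in SMiG, and the second 6.41 in C6 and 7.26 in SMiG, so they differed in opposite directions, by −0.62 and 0.86. Which of the 2 genes each probe set reports was not tested, and no value is given to Tf.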

How the results depend on the processing

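Each member kept its direction under median centring, lowess, quantile normalization and the brightest probe set, except that Heph and Slc40a1, below the floor, have no direction to keep. Over all settings Cp ran from 3.43 to 3.44, Hmox1 from −2.94 to −2.90, Tfrc from −0.68 to −0.64, Slc11a2 from 0.76 to 0.81 and Fth1 from 0.43 to 0.75, the ends being its single probe sets. Of 180 recomputed counts, 163 stayed within 1.5 times, which includes counts of 0 that stayed at 0. Most main counts were 0, so this figure says little about stability. At 1.5-fold, 3 of 7 members were higher and 2 lower, where 10.4% of all detected genes were higher and 15.0% lower. Higher genes numbered 1 of 5 in storage, 1 of 11 in heme synthesis and 1 of 4 in heme breakdown. In the list of mitochondrial iron and iron-sulfur assembly 1 of 14 was higher, and in the copper list 3 of 12. Lower genes numbered 5 of 9 in iron entry, 1 of 11 in heme synthesis and 2 of 4 in heme breakdown. Among NRF2 targets 8 of 16 were lower, and in the acute-phase list 1 of 9. At 3-fold, 0 iron entry, 0 mitochondrial and 0 higher NRF2-list genes were left, and 1 acute-phase gene. With quantile normalization 1 gene of the mitochondrial list, Nfu1, was at least 2-fold lower, Isca2 moving from −1.04 to −0.99. The cause of the Isca2 shift was not tested. With that normalization 3.49% of all detected genes were at least 2-fold higher and 6.05% lower. No paired analysis was possible because each group holds 1 array. Signal over background limits Slc40a1, Heph and Hamp.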

Other observations

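The chromosomal neighbours of the 2 outer members were looked up after the data were seen, 3 protein-coding genes on each side in the RefSeq GRCr8 order. Of these 12 genes, 11 were measured and 7 detected, and their differences ran from −0.28 to 0.23. Beside Cp, Crh did not exceed either floor, and Hps3, encoding a subunit for lysosome-related organelles, was at 6.81 in C6 and 6.89 in SMiG. Beside Hmox1, the endosomal trafficking gene Tom1 was at 8.23 and 7.95, and the replication licensing gene Mcm5 at 8.65 and 8.77. None of the 7 passed 1.5-fold. Of all detected genes 10.4% passed it upward and 15.0% downward, so nothing is read from this count. Cp was at 3.43 and Hmox1 at −2.94.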
